A study of Mus musculus with 19 samples.

Results

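The genes described here make cholesterol and fatty acids, or control those that do. They were chosen by symbol from a list of 34 genes, and 33 of them had a probe set naming that gene alone, among 14996 genes tested; Acat2 was not analysed here. The 33 had 77 probe sets, of which 74 passed the filter on low signal, and the brightest passing one stands for each gene. All 33 genes passed, and none fell below the 40th percentile of all values, pooled over arrays, on any array. The sterol branch held 17 measured genes, the fatty acid branch 9, and the control of sterol levels and sterol transport 6, with Lpin1 of glycerolipid synthesis as the remaining gene.

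RNA came from NIH3T3 cells, an immortalized mouse fibroblast line, on 19 Affymetrix whole-genome mouse arrays in 11 groups. All cells had been made quiescent in 0.1% serum for 48 h. The treated cells received 50 ng/ml basic fibroblast growth factor (FGF), with or without 20 µM U0126, an inhibitor of the kinase MEK that blocks ERK activation. U0126 was given 0.5 h before FGF and cells were taken at 1, 4, 7 and 12 h, or it was added at 1 h and cells were taken at 7 h, or it was added at 7 h and cells were taken at 12 h. FGF alone was measured at 1, 4, 7 and 12 h, and quiescent cells without FGF served as the baseline. The quiescent cells gave 3 arrays (1a, 1b and 2), the 4, 7 and 12 h groups 2 arrays each, numbered as experiments 1 and 2, and both 1 h groups and both late additions 1 array each, from experiment 1. Separate cultures are not stated for the experiments, so p-values measure the spread between these samples, which may be technical. There were no untreated cells at later times, so FGF and time in culture cannot be told apart in comparisons with quiescent cells.

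As background, cholesterol is built from acetyl-CoA through mevalonate and farnesyl diphosphate to squalene, which is cyclised and trimmed to cholesterol. Transcription of these genes is driven by the SREBP proteins, which stay in the endoplasmic reticulum bound to SCAP and INSIG while sterols are plentiful and are cut and released to the nucleus when sterols run low. SREBP-2 acts mainly on sterol genes and SREBP-1c mainly on fatty acid genes, together with cofactors such as NF-Y and SP1. Dividing cells need both products for new membranes.

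The bases before the transcription starts are shown for 5 members, to set members that moved in different ways side by side. They are the 250 bases upstream of a start in RefSeq (GRCm38.p6), 5′ to 3′ on the gene's strand. Capitals mark CCAAT, the letters bound by NF-Y, and TCACNCCAC, a form of the sterol response element, on either strand. Hmgcs1 and Idi1 stand for the mevalonate steps, Lss for the steps after squalene, Insig2, shown at the one of its starts that holds CCAAT, for a regulator that moved opposite to them and Elovl6 for the fatty acid gene with the largest change.
Hmgcs1 (chr13:119690101-119690350, plus strand): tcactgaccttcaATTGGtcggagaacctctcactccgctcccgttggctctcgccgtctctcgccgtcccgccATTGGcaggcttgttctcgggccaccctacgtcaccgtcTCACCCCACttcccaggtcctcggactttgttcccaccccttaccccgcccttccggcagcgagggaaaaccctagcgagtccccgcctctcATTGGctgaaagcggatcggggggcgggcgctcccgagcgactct
Idi1 (chr13:8885356-8885605, plus strand): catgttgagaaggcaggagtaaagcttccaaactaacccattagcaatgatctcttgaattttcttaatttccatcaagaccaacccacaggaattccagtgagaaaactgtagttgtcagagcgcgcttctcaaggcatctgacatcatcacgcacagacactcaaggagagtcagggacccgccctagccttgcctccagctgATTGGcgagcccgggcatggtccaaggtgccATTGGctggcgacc
Lss (chr10:76531355-76531604, plus strand): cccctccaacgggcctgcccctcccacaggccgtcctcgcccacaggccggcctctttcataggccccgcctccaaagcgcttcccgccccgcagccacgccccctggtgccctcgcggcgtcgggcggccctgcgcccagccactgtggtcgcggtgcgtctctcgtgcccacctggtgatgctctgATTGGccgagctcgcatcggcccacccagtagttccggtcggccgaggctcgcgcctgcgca
Insig2 (chr1:121332590-121332839, minus strand): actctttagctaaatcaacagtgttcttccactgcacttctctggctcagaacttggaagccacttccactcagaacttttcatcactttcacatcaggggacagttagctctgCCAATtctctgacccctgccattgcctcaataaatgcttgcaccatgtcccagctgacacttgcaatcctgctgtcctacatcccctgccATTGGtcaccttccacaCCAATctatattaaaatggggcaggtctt
Elovl6 (chr3:129532136-129532385, plus strand): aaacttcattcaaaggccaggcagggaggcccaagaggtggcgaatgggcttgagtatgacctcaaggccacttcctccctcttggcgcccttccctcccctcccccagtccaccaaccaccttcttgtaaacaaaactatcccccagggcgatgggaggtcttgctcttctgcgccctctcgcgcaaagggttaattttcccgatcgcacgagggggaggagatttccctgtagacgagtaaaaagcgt

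Windows were found for 26 of the 33 measured genes, and a gene counts if any of its starts holds the letters. CCAAT was present in 14 of the 14 sterol branch genes with a window, 2 of 6 fatty acid genes and 4 of 5 regulators, against 37.5% of all 27025 genes with one. GGGCGG, the SP1 letters, was present in 13 of 14 sterol genes, 3 of 6 fatty acid genes and 5 of 5 regulators, against 35.4% of all genes. TCACNCCAC was present only in Hmgcs1 among the members, against 1.22% of all genes, and the E-box CACGTG in 3 of 14 sterol genes, 0 of 6 fatty acid genes and 2 of 5 regulators, against 6.86% of all genes. All were searched on both strands. The 5 regulators had 10 windows, so a count by gene gave them more chances of a match. By window, CCAAT was in 5 of these 10, GGGCGG in 7 and CACGTG in 2. In the 17 sterol branch windows these were 14, 14 and 3. Over all 32851 windows they were 33.8%, 32.7% and 6.02%. None of the 4 motifs contains another. A match describes the letters and is not evidence of binding.

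The values are MAS5 signals, which are linear, scaled by the authors to a trimmed mean of 500 on every array. A difference is given on the scale of log2(signal + 13.6), which understates changes of low genes, with its standard error from a limma fit of all 11 groups. Calls are at a Benjamini-Hochberg adjusted p under 0.05 over all 14996 genes, and every adjusted p below comes from limma. Samples of the same experiment number deviated together, so a second limma fit carried the experiment as a block. Where its counts are printed, they stand beside those of the first fit, and its p stands beside members named for it. A group of 1 array has no spread of its own, so its tests borrow the spread of the other groups. Signals compare a gene with itself across arrays, since probe sets differ in affinity.

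Array medians ran from 60.2 to 88.3, r between experiments 1 and 2 of a group lay between 0.969 and 0.979 over the genes tested, and that of quiescent arrays 1a and 1b was 0.968 over all probe sets. As a check of U0126, Dusp6, a target and phosphatase of ERK, was lower with U0126 than with FGF alone by 2.74 ± 0.16 (SE) at 4 h and 2.14 ± 0.16 at 12 h on the log2 scale (limma adjusted p = 1.31e-07 and 7.47e-07). Fosl1 and Ccnd1, the other check genes, differed by -1.18 and -1.93 at 4 h and -1.98 and -1.64 at 12 h. Against quiescent cells, Dusp6 and Ccnd1 with U0126 were at 0.005 and -1.125 at 4 h and 0.22 and -0.31 at 12 h. Fosl1 with U0126 stayed above quiescent cells, by 2.32 ± 0.23, 2.09 ± 0.23 and 1.24 ± 0.23 at 4, 7 and 12 h (limma adjusted p = 3.07e-05, 5.07e-05 and 0.00416). Fibroblast markers (7 of 7) were above the low-signal line on all arrays, with summed signals of 105400 to 169800. Of 5 adipocyte markers measured, Adipoq and Pparg were below the 40th percentile of all values pooled over arrays (45.2) on all 19 arrays and Fabp4 on 17 of 19, while Lpl was bright throughout (7603 to 23975). The adipocyte sum, which Lpl dominates, was 17670 to 22420 with FGF and U0126 at 12 h, 7711 to 9781 with FGF alone at 12 h and 15050 to 18990 in quiescent cells; its part in the results was not tested. Of 5 macrophage markers, Ptprc was below that percentile on all 19 arrays, Adgre1 and Cd68 on 2 each and Csf1r and Lyz2 on 0, and their sum was 546.4 to 556.1 with FGF and U0126 at 12 h, 510.1 to 527.8 with FGF alone at 12 h and 512.6 to 626 in quiescent cells. Of 4 epithelial markers, Krt18 was below it on 13 arrays, Cdh1 on 9, Krt8 on 4 and Epcam on 0 (187 to 567), and their sum was 409.6 to 541.7, 350.2 to 517.8 and 475.6 to 690.7 in the same groups. The part of these markers was not tested either. In bulk RNA, fewer cells of a type and less RNA per cell cannot be told apart.

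With FGF alone for 12 h, 22 of 33 members were higher and 2 lower than in quiescent cells, against 8.38% of all genes higher and 11.9% lower. Within the sterol branch 16 of 17 rose, with a median difference of 1.02 against -0.03 over all genes. In the fatty acid branch 5 of 9 rose, with a median of 0.61. Of the 6 regulators, Stard4 rose and Insig2 fell. Lpin1 was the other member that fell. With the experiment as a block, 25 members were higher and 2 lower, against 12.1% and 17.8% of all genes.

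The number of members called against quiescent cells rose from 4 to 12 h, as did the number called over all genes. FGF alone at 4 h gave 5 members higher and 2 lower than quiescent cells (3.85% and 5.07% of all genes), and 13 and 3 with the block (7% and 10.8%). In place of 7 members, 1 passed when quiescent replicate 2 was left out and 2 when FGF 4 h replicate 1 was. At 7 h 14 were higher and 3 lower with the block (1343 and 1897 of 14996 genes). Without it 14 were higher and 2 lower (5.37% and 7.31% of all genes), 16 in all. Leaving out quiescent replicate 2 brought that to 6, and leaving out FGF 7 h replicate 2 to 10. In the sterol branch 3, 11 and 16 of 17 rose at 4, 7 and 12 h, with medians of 0.44, 0.58 and 1.02. In the fatty acid branch 2, 3 and 5 of 9 rose, with medians of 0.00, 0.18 and 0.61. Over all genes the medians were -0.10, -0.06 and -0.03. From 7 to 12 h, Lss, Nsdhl, Sc5d and Stard4 rose in FGF cells (4 of 33 members, against 1.55% of all genes), and 12 members did so with the block (2.93%). Without the block this count was 0 when FGF 7 h replicate 1 or FGF 12 h replicate 1 was left out, and 2 when FGF 7 h replicate 2 was. From 4 to 7 h 0 members passed (0.127% of all genes in either direction), and 1 was higher with the block, Elovl6 (limma adjusted p = 0.0292 with the block, 0.994% of all genes higher).

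At 1 h, where each group had 1 array, 0 of 33 members passed in FGF cells against quiescent cells (0.48% of all genes passed) or in FGF plus U0126 against FGF alone (0.187%). Idi1 was the 1 member that passed with the block in FGF cells, at 0.82 ± 0.20 (limma adjusted p = 0.0123 with the block, 0.124 without, and 0.84% of all genes higher with it). Its signal was 5639 in FGF cells at 1 h, against 3500, 3538 and 2899 in quiescent cells, which do not overlap it. Against quiescent cells, the sterol branch median at 1 h was 0.22 with FGF and 0.48 with FGF plus U0126. Over all genes these medians were -0.005 and 0.026. Not every member rose steadily: Hmgcs1 had 13321 at 1 h of FGF alone, against 10322 and 10293 at 4 h.

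**Figure D1:**
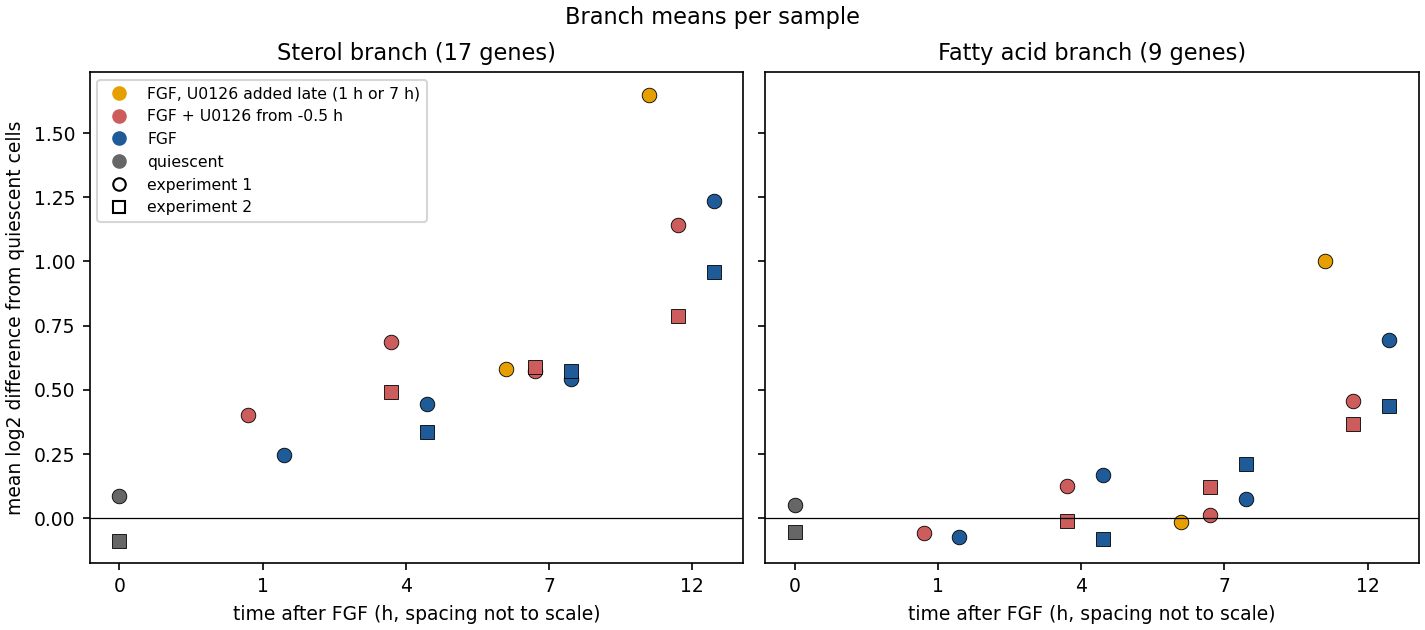
Mean log2 difference from the quiescent mean over the 17 sterol branch genes and the 9 fatty acid branch genes on each array, by time after FGF (axis spacing not to scale) and treatment. The 12 h arrays of FGF alone lie at 1.24 and 0.96 for the sterol branch and 0.69 and 0.44 for the fatty acid branch, the 12 h arrays of FGF with U0126 given before FGF at 1.14 and 0.79, and 0.46 and 0.37, and the array with U0126 added at 7 h is the highest in both.

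Among the mevalonate steps, all 6 measured genes rose at 12 h of FGF. Idi1, the isopentenyl diphosphate isomerase, had signals of 8562 and 7753 in FGF cells at 12 h, against 3500, 3538 and 2899 in quiescent cells. The groups did not overlap, and the difference was 1.35 ± 0.16 (limma adjusted p = 4.60e-05). Mvd, the diphosphomevalonate decarboxylase, had 1926 and 1306 in FGF cells at 12 h, against 365, 649 and 594 in quiescent cells, a difference of 1.51 ± 0.21 (limma adjusted p = 0.000158). Fdps, which makes farnesyl diphosphate, had 14740 and 14256 in FGF cells, against 6281, 7852 and 5939 in quiescent cells, a difference of 1.16 ± 0.15 (limma adjusted p = 7.44e-05). Pmvk, the phosphomevalonate kinase, had 1124 and 744 in FGF cells, against 460, 454 and 370 in quiescent cells, a difference of 1.13 ± 0.20 (limma adjusted p = 0.00103). In each of these genes every FGF array at 12 h was above every quiescent array. Hmgcs1, the cytosolic synthase that joins acetyl units early in the pathway, had 15259 and 14275 in FGF cells, against 8639, 10329 and 9676 in quiescent cells. It rose by 0.62 ± 0.13, and Mvk, the mevalonate kinase, by 0.78 ± 0.26 (limma adjusted p = 0.00344 and 0.0442). The call for Mvk was lost when quiescent replicate 2 (limma adjusted p = 0.314), quiescent replicate 1a (0.0993) or FGF 12 h replicate 1 (0.312) was left out.

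Of the 11 genes from squalene to cholesterol, 10 rose at 12 h of FGF. Sc5d, the sterol C5-desaturase, had signals of 5225 and 4463 in FGF cells, against 1468, 2175 and 1917 in quiescent cells, a difference of 1.36 ± 0.15 (limma adjusted p = 1.55e-05). Lss, which closes the sterol rings, had 1712 and 1313 in FGF cells, against 404, 502 and 454 in quiescent cells, a difference of 1.70 ± 0.19 (limma adjusted p = 2.62e-05). Nsdhl, which removes C4 methyl groups, had 4876 and 3921 in FGF cells, against 1440, 1831 and 1466 in quiescent cells, a difference of 1.49 ± 0.18 (limma adjusted p = 5.01e-05). Cyp51, the lanosterol demethylase, had 14031 and 13851 in FGF cells, against 7631, 6682 and 6549 in quiescent cells, a difference of 1.02 ± 0.12 (limma adjusted p = 3.96e-05). The groups did not overlap in any of the 4. Dhcr7, which takes the last step to cholesterol, rose by 1.77 ± 0.25 (limma adjusted p = 0.000153), the largest difference of the branch. Fdft1 (squalene synthase), Sqle (squalene epoxidase), Tm7sf2, Msmo1 and Hsd17b7 rose by 0.70 to 0.97. The Tm7sf2 call was lost without quiescent replicate 2 (limma adjusted p = 0.157) or FGF 12 h replicate 1 (0.194). Ebp, the sterol isomerase, was at 0.48 ± 0.18 (limma adjusted p = 0.0816), and passed with the block (0.0157). The Fdft1 value comes from its bright probe set. A second bright one gave 0.84, and a dim one with a median signal of 12.9 gave -1.32. It was the 1 of 33 other probe sets, over 17 called members with more than 1, that went the other way.

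**Figure D2:**
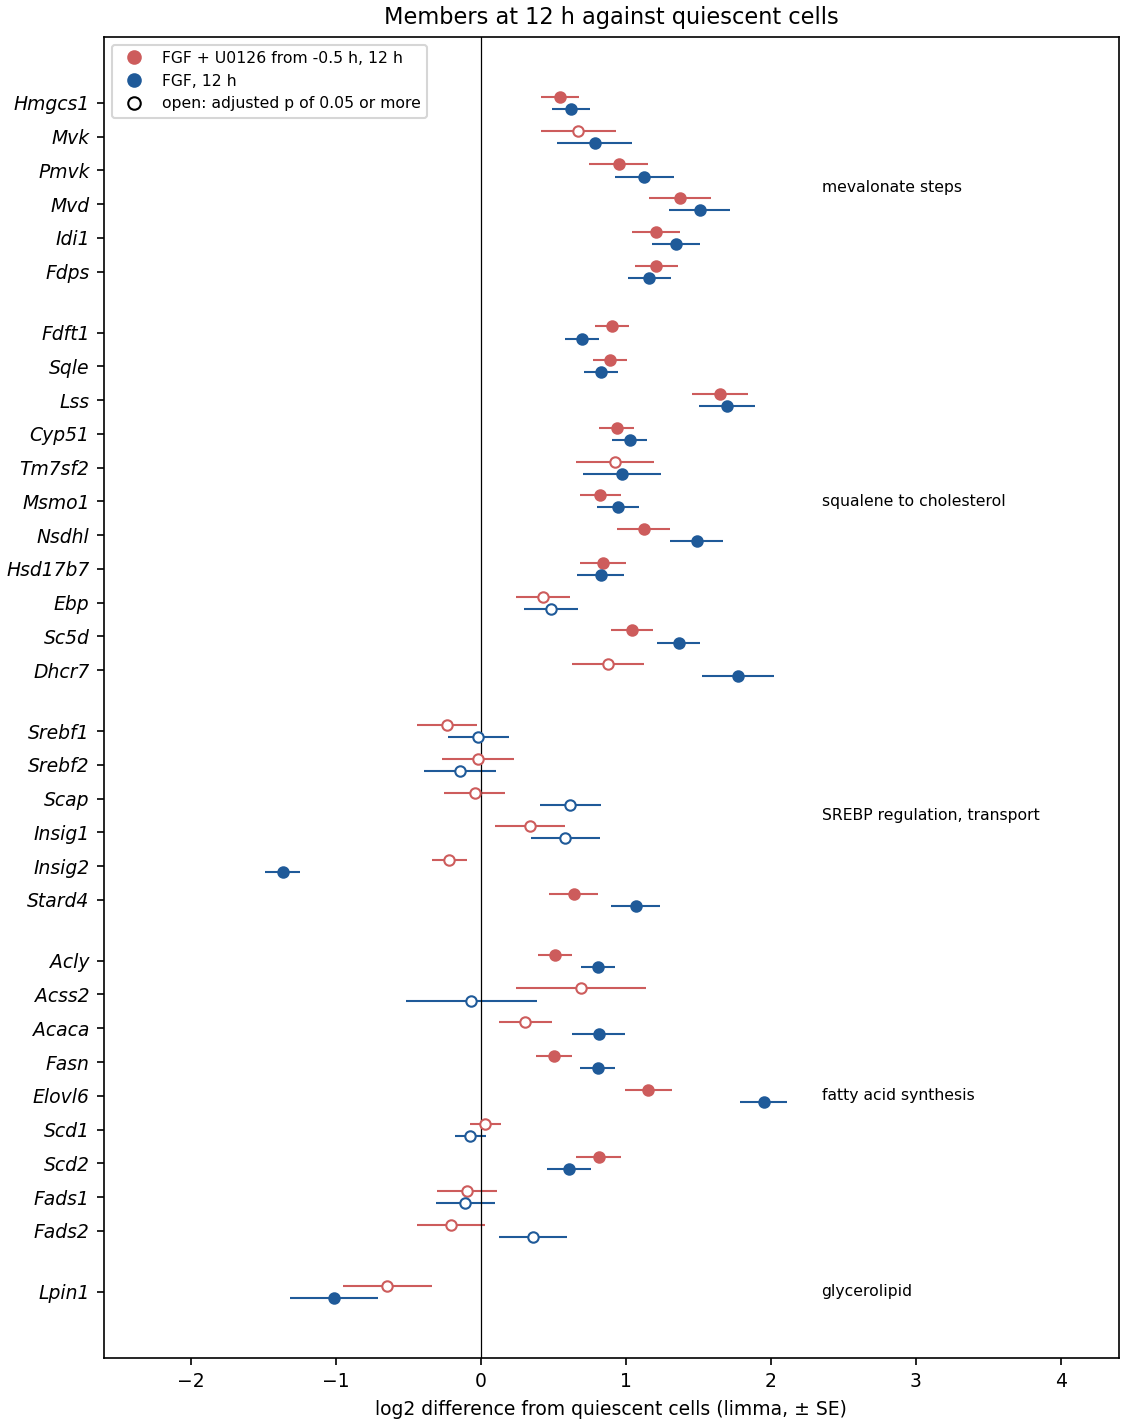
Log2 difference from quiescent cells at 12 h for each of the 33 members, grouped by role, with standard errors from limma (open points did not pass), for FGF plus U0126 and FGF alone. The sterol genes lie right of 0 in both, from 0.43 to 1.65 with U0126 and from 0.48 to 1.77 with FGF alone, while Insig2 is at -0.22 and -1.37 and Elovl6 at 1.16 and 1.95.

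Among the regulators, Insig2, one of a pair of proteins that hold SCAP in the endoplasmic reticulum, moved opposite to the enzymes. Its signals were 3501 and 3546 at 4 h, 2827 and 2588 at 7 h and 2089 and 2278 at 12 h of FGF alone, against 5318, 5399 and 5951 in quiescent cells. No FGF array from 4 h on reached a quiescent one. The differences were -0.68 ± 0.12, -1.06 ± 0.12 and -1.37 ± 0.12 (limma adjusted p = 0.00291, 7.57e-05 and 3.50e-06). Insig1, its paralog and a known SREBP target, had 5252 and 4172 at 12 h of FGF, against 4190, 2971 and 2719 in quiescent cells. These overlap by 1 array, and the difference of 0.58 ± 0.24 passed only with the block (limma adjusted p = 0.108 without and 0.00024 with it). Stard4, a cytosolic sterol carrier, had 3364 and 2511 at 12 h of FGF, against 1566, 1462 and 1258 in quiescent cells, a difference of 1.07 ± 0.17 (limma adjusted p = 0.000427).

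The SREBP genes themselves did not pass at any time of FGF alone. Srebf1 had 989 and 803 at 12 h of FGF, against 690, 981 and 974 in quiescent cells, and the groups overlapped. Its difference was -0.02 with a 95% interval of -0.46 to 0.43. Srebf2 had 1868 and 1746 at 12 h of FGF, against 1574, 1929 and 2278 in quiescent cells, also overlapping, with a difference of -0.14 and an interval of -0.68 to 0.39. Scap, the sterol sensor that escorts SREBP, had 1724 and 1526 at 12 h of FGF, against 692, 1063 and 1264 in quiescent cells. Both FGF arrays were higher, and the difference of 0.62 ± 0.21 passed only with the block (limma adjusted p = 0.0523 without and 0.00866 with it).

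In the fatty acid branch, Elovl6, which lengthens palmitate to stearate, had the largest difference of all members at 12 h of FGF. Its signals were 2027 and 1544 at 4 h, 2578 and 2898 at 7 h and 4477 and 3727 at 12 h of FGF alone, against 976, 1291 and 966 in quiescent cells. The arrays of each later time were all above those of the time before, and the differences were 0.75 ± 0.16, 1.37 ± 0.16 and 1.95 ± 0.16 (limma adjusted p = 0.00914, 9.35e-05 and 2.36e-06). The 4 h call was lost without quiescent replicate 2 (limma adjusted p = 0.104) or FGF 4 h replicate 1 (0.112). Fasn, the fatty acid synthase, had 5152 and 4614 at 12 h of FGF, against 2538, 3120 and 2745 in quiescent cells, a difference of 0.80 ± 0.12 (limma adjusted p = 0.000309). Acly, which supplies cytosolic acetyl-CoA from citrate, had 8656 and 8897 at 12 h of FGF, against 4283, 5035 and 5384 in quiescent cells, a difference of 0.81 ± 0.12 (limma adjusted p = 0.000195). Acaca, the acetyl-CoA carboxylase, had 1802 and 1595 at 12 h of FGF, against 861, 1123 and 928 in quiescent cells, a difference of 0.81 ± 0.18 (limma adjusted p = 0.00509). The groups did not overlap for these genes. The Acaca call was lost without FGF 12 h replicate 1 (limma adjusted p = 0.0546).

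The desaturases did not move as a group. Scd2, a stearoyl-CoA desaturase, had 22417 and 20626 at 12 h of FGF, against 16757, 14778 and 12613 in quiescent cells, with no overlap and a difference of 0.61 ± 0.15 (limma adjusted p = 0.011). Its call was lost without quiescent replicate 2 (limma adjusted p = 0.143) or FGF 12 h replicate 1 (0.0782). Scd1, its paralog, had 6382 and 6176 at 12 h of FGF, against 6580, 6620 and 6607 in quiescent cells, a difference of -0.07 with an interval of -0.30 to 0.16. A second Scd1 probe set, with a median signal of 973, gave 0.60, so the probe sets disagree for this gene. Fads1 and Fads2, the desaturases of polyunsaturated fatty acids, were at -0.11 and 0.36 and did not pass (limma adjusted p = 0.788 and 0.345). The other Fads1 probe set, with a median signal of 252.5, gave 0.43. The other Fads2 probe sets, with median signals of 1680 and 186.7, gave 0.75 and 0.10. Acss2, which makes acetyl-CoA from acetate, had 338 and 176 at 4 h, 336 and 184 at 7 h and 644 and 325 at 12 h of FGF, against 661, 458 and 414 in quiescent cells. Its arrays split by experiment, and it was below quiescent cells with the block at 4 and 7 h (limma adjusted p = 0.00726 and 0.0069), but not without it (0.247 and 0.237).

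Lpin1, a phosphatidate phosphatase that also acts in the nucleus, fell. Its signals were 244 and 269 at 4 h, 177 and 234 at 7 h and 340 and 253 at 12 h of FGF alone, against 525, 560 and 679 in quiescent cells. Every FGF array was below every quiescent array, and the differences were -1.20 ± 0.30, -1.51 ± 0.30 and -1.01 ± 0.30 (limma adjusted p = 0.0229, 0.00447 and 0.0287). Leaving out quiescent replicate 2 ended all 3 calls (limma adjusted p = 0.181, 0.0568 and 0.193). The 4 h call was also lost without either FGF 4 h array (0.115 and 0.0942), and the 12 h call without FGF 12 h replicate 2 (0.196).

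**Figure D3:**
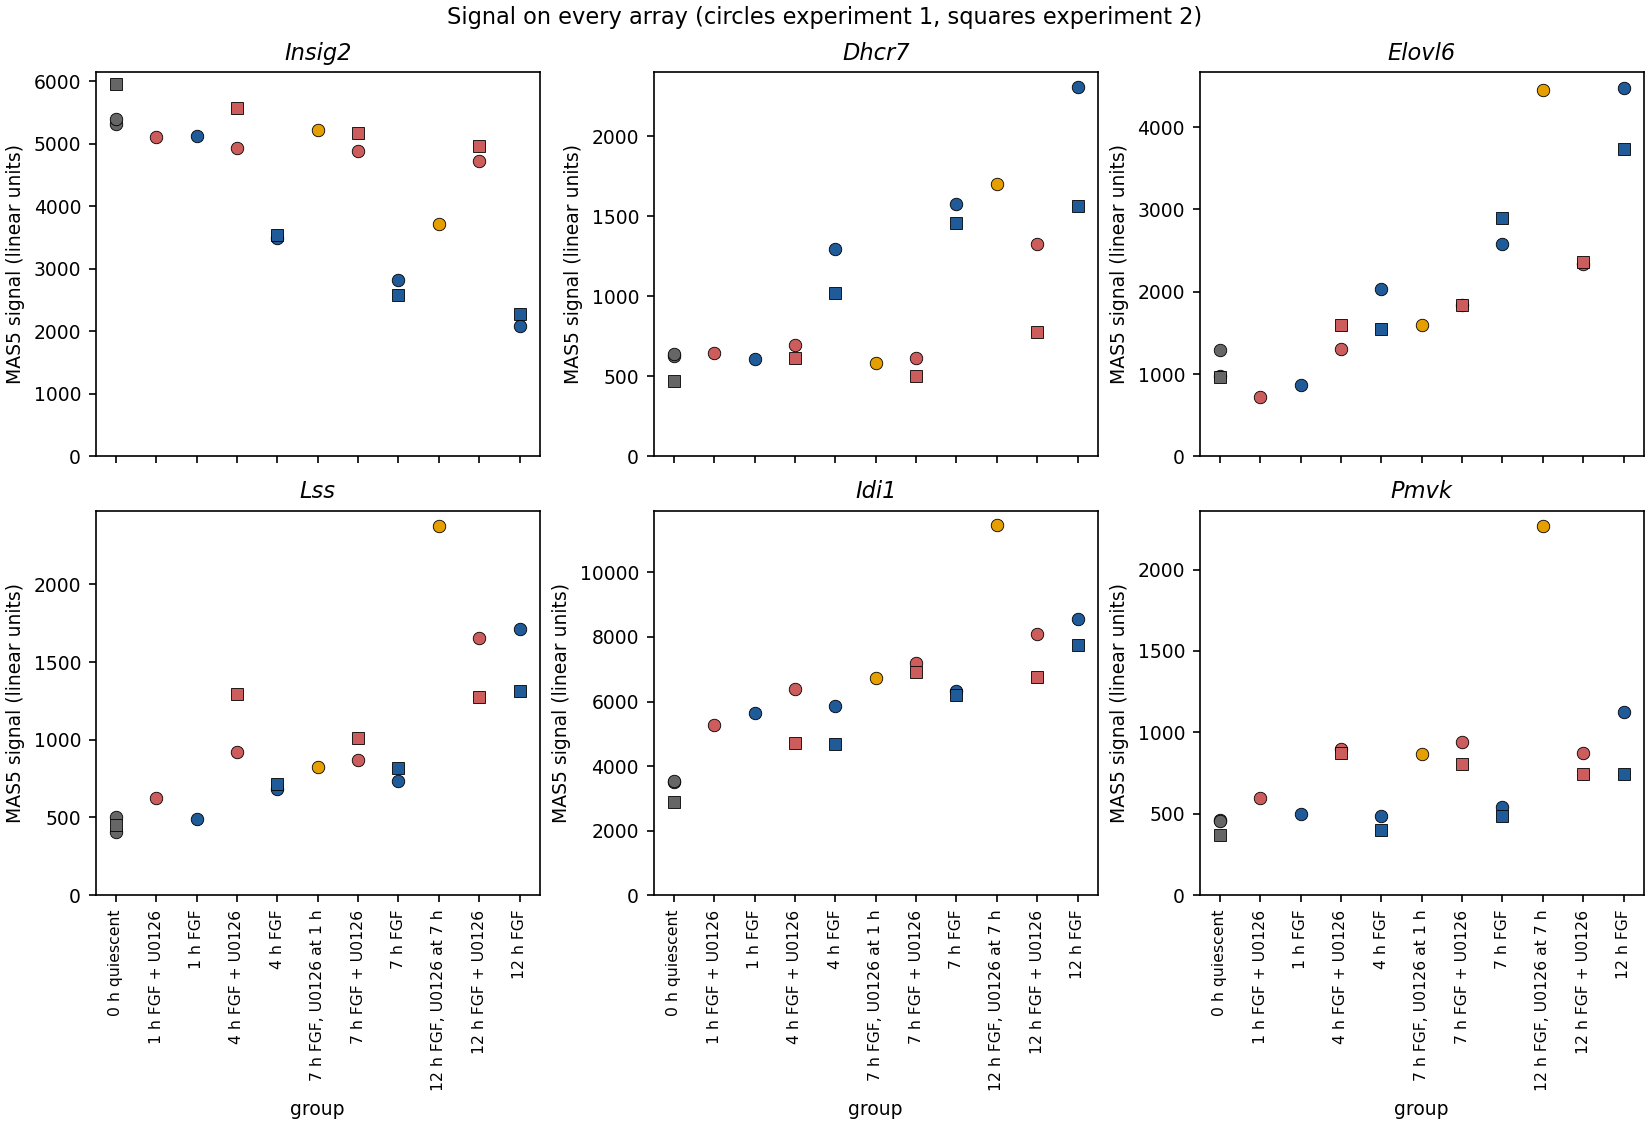
MAS5 signal (linear units) on every array for selected members, by group, with quiescent cells at the left end of each panel. Insig2 falls with FGF alone and stays near its quiescent signal with U0126, Dhcr7 and Elovl6 rise with FGF alone and less with U0126, and Lss rises in both.

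Most sterol genes were also higher when U0126 was given before FGF. In FGF plus U0126 cells 10, 10 and 13 of 17 sterol genes were higher than in quiescent cells at 4, 7 and 12 h, with medians of 0.73, 0.73 and 0.93. With the block, 13 members were higher and 1 lower at 4 h (933 and 1320 of 14996 genes). At 7 h these were 14 and 3 (1146 and 1664), and at 12 h 22 and 0 (941 and 1226). Without the block, over all 33 members 10 were higher and 0 lower at 4 h (3.26% and 4.13% of all genes), 11 higher and 1 lower at 7 h (3.66% and 5.46%), and 18 higher and 0 lower at 12 h (2.37% and 3.09%). Leaving out quiescent replicate 2 brought the members passing to 5, 7 and 11 at 4, 7 and 12 h. Leaving out replicate 1 of FGF plus U0126 brought them to 7 at 7 h and 11 at 12 h. Of the fatty acid genes 0, 1 and 4 of 9 were higher, with medians of 0.11, 0.10 and 0.50. Lss, for instance, had 1654 and 1274 in FGF plus U0126 cells and 1712 and 1313 in FGF cells at 12 h, so the treatments overlapped. Idi1 had 8086 and 6753 in FGF plus U0126 cells and 8562 and 7753 in FGF cells at 12 h, which also overlap.

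Compared directly, FGF plus U0126 and FGF alone differed at 12 h in 3 of 33 members, 1 higher and 2 lower, against 6.25% of all genes higher and 5.78% lower. With the block 2 were higher and 7 lower (11.6% and 9.11%). Of these, 6 passed only with it: Acss2 was higher (0.76, limma adjusted p = 0.0235), and Scap (-0.66, 0.00826), Stard4 (-0.43, 0.024), Acaca (-0.51, 0.0258), Fads2 (-0.57, 0.0356) and Acly (-0.30, 0.04) were lower. The median difference was -0.09 over the sterol branch and -0.30 over the fatty acid branch, against 0.05 over all genes. At 4 h 3 members were higher and 0 lower (3.21% and 2.72% of all genes), and at 7 h 2 were higher and 2 lower (3.05% each way). With the block 5 were higher and 1 lower at 4 h (1044 and 909 of 14996 genes), and 4 and 3 at 7 h (937 and 949). Missing the threshold does not show that the treatments act alike: at 12 h the 95% intervals of the U0126 difference were -0.46 to 0.37 for Lss, -0.49 to 0.21 for Idi1, -0.27 to 0.37 for Fdps and -0.59 to 0.32 for Mvd.

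**Figure D4:**
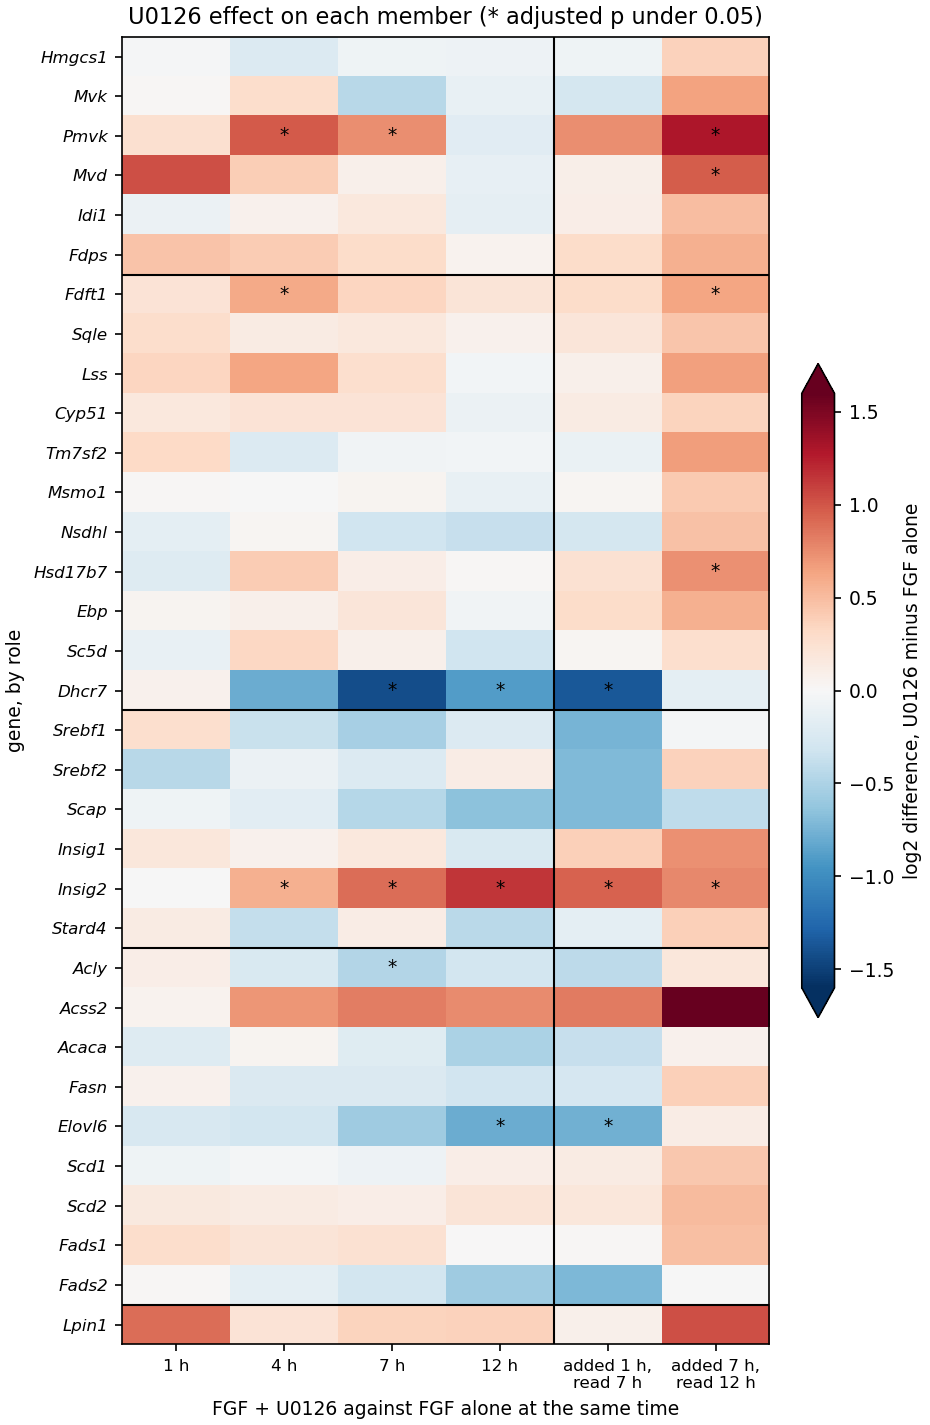
Log2 difference between FGF plus U0126 and FGF alone for each member as a colour map, by time for U0126 given before FGF and, right of the line, for the late additions, with red for higher, blue for lower and a star for members that passed in limma. At 4, 7 and 12 h Insig2 lies above 0 (0.57, 0.89 and 1.15) and Dhcr7 (-0.80, -1.42 and -0.89) and Elovl6 (-0.29, -0.57 and -0.80) below it, while Pmvk is at 0.98, 0.75 and -0.18.

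Insig2 was the member that U0126 raised at all 3 times. Its signals with FGF plus U0126 were 4933 and 5565 at 4 h, 4884 and 5170 at 7 h and 4724 and 4971 at 12 h, against 2089 and 2278 with FGF alone at 12 h. The U0126 arrays were all above the FGF arrays of the same time. The differences were 0.57 ± 0.12, 0.89 ± 0.12 and 1.15 ± 0.12 (limma adjusted p = 0.0105, 0.000313 and 1.67e-05). Against quiescent cells it was at -0.22 with U0126 at 12 h, with an interval of -0.48 to 0.04. Leaving out 1 array ended the call at 4 h in 3 of 4 cases, with limma adjusted p of 0.0731 and 0.068 when replicate 1 or 2 of FGF alone was dropped and 0.105 when replicate 2 of FGF plus U0126 was.

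Dhcr7 was the sterol gene that U0126 lowered. It had 698 and 618 at 4 h, 618 and 504 at 7 h and 1330 and 776 at 12 h with FGF plus U0126, against 1295 and 1022 at 4 h, 1575 and 1456 at 7 h and 2308 and 1564 at 12 h with FGF alone. The U0126 arrays were below the FGF arrays at each time. The differences were -0.80 ± 0.25, -1.42 ± 0.25 and -0.89 ± 0.25 (limma adjusted p = 0.0787, 0.00255 and 0.029), and the one at 4 h passed with the block (0.00116). At 7 h with U0126 it was at 0.03 against quiescent cells, with an interval of -0.50 to 0.56, and at 12 h at 0.88 ± 0.25 (limma adjusted p = 0.0545, with the block 0.00048). The 12 h call was lost without FGF 12 h replicate 1 (limma adjusted p = 0.267) or FGF plus U0126 12 h replicate 2 (0.318).

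Elovl6 had 2339 and 2356 at 12 h of FGF plus U0126, against 4477 and 3727 with FGF alone. The groups did not overlap, and the difference was -0.80 ± 0.16 (limma adjusted p = 0.00421). It missed the threshold without FGF 12 h replicate 1 (0.0638). Elovl6 with U0126 was still above quiescent cells by 1.16 ± 0.16 at 12 h (limma adjusted p = 0.000543). Acly was lower with U0126 at 7 h, with 5285 and 5435 in FGF plus U0126 cells against 7027 and 7880 in FGF cells, a difference of -0.47 ± 0.12 (limma adjusted p = 0.0256). This call was lost without FGF 7 h replicate 2 (limma adjusted p = 0.203), FGF plus U0126 7 h replicate 1 (0.133) or FGF plus U0126 7 h replicate 2 (0.0978).

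Pmvk and Fdft1 were higher with U0126 early. Pmvk had 895 and 873 at 4 h with FGF plus U0126, against 488 and 402 with FGF alone, a difference of 0.98 ± 0.20 (limma adjusted p = 0.00876). At 7 h Pmvk had 939 and 807 with FGF plus U0126, against 542 and 484 with FGF alone, a difference of 0.75. That call was lost when any single array of the compared groups was left out. At 12 h Pmvk had 875 and 743 with FGF plus U0126, against 1124 and 744 with FGF alone, and the groups overlapped. Fdft1 had 6096 and 6547 at 4 h with FGF plus U0126, against 4158 and 4116 with FGF alone, a difference of 0.61 ± 0.12 (limma adjusted p = 0.00512). The Pmvk call at 4 h was lost without FGF 4 h replicate 2 (limma adjusted p = 0.100) or FGF plus U0126 4 h replicate 1 (0.0611), and that of Fdft1 without FGF plus U0126 4 h replicate 2 (0.0543).

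Averaged over 4, 7 and 12 h, U0126 raised 6 members and lowered 8 with the block (2499 and 2093 of 14996 genes). Without it U0126 raised 4 members and lowered 6, against 11.7% and 10.3% of all genes. Pmvk, Fdft1, Insig2 and Acss2 were higher. Dhcr7, Srebf1, Scap, Acly, Fasn and Elovl6 were lower, by 1.04 ± 0.14 for Dhcr7, 0.37 ± 0.12 for Srebf1, 0.43 ± 0.12 for Scap, 0.34 ± 0.07 for Acly, 0.25 ± 0.07 for Fasn and 0.55 ± 0.09 for Elovl6, so 3 of 9 fatty acid genes and 1 of 17 sterol genes fell; the branches were not tested against each other. The Scap call was lost without FGF 4 h replicate 2, FGF 7 h replicate 2, FGF plus U0126 7 h replicate 1, FGF 12 h replicate 1 or FGF plus U0126 12 h replicate 2 (limma adjusted p = 0.0504 to 0.0644), and that of Fasn without FGF 7 h replicate 2, FGF plus U0126 7 h replicate 1 or FGF 12 h replicate 1 (0.0536 to 0.0554). Those of Srebf1 (0.0715 to 0.115) and Acss2 (0.0866 to 0.155) were each lost without 7 of the 12 arrays. The average Acss2 call was also lost with quantile normalization, 75th percentile scaling, an offset of 1, no filter or no variance trend (limma adjusted p = 0.0527 to 0.137). For Fdft1 the U0126 difference at 12 h was 0.21 on the probe set used and -0.16 on its second bright one. By an F test in limma of whether the U0126 difference varies with time, 0 of 33 members passed (1.03% of all genes) and 1 did with the block, Pmvk (limma adjusted p = 0.0034, 3.84% of all genes). For the U0126 difference at 12 h minus that at 4 h, 0 members passed (1.79% of all genes), and Pmvk, Sc5d and Insig2 did with the block (limma adjusted p = 0.00153, 0.043 and 0.0242, 5.21% of all genes).

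Adding U0126 after FGF was measured on 1 array each, in experiment 1. Against FGF alone at 7 h, U0126 from 1 h gave Insig2 higher by 0.95 ± 0.15, Dhcr7 lower by 1.36 ± 0.30 and Elovl6 lower by 0.77 ± 0.20 (limma adjusted p = 0.00175, 0.0209 and 0.0446), 1 member higher and 2 lower against 1.68% and 1.93% of all genes. Their signals with U0126 from 1 h were 5219 for Insig2, 581 for Dhcr7 and 1595 for Elovl6, against 2827 and 2588, 1575 and 1456, and 2578 and 2898 with FGF alone at 7 h. These lie outside the FGF range. The Dhcr7 and Elovl6 calls were lost without FGF 7 h replicate 1 (limma adjusted p = 0.0651 and 0.0607) or replicate 2 (0.0649 and 0.211).

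The array with U0126 added at 7 h and taken at 12 h held the highest signal of all 19 arrays for 24 of 33 members, 16 of them among the 17 sterol genes, against 6.5% of all genes. Against FGF alone at 12 h, 5 members were higher and 0 lower (2.48% and 2.59% of all genes), and 11 and 0 with the block (5.63% and 5.73%). Pmvk had 2265 with late U0126, against 1124 and 744 with FGF alone, a difference of 1.30 ± 0.25 (limma adjusted p = 0.00629). Mvd had 3127, against 1926 and 1306, a difference of 0.97 ± 0.26 (limma adjusted p = 0.0445). Insig2 had 3722, against 2089 and 2278, a difference of 0.77 ± 0.15 (limma adjusted p = 0.00698). Fdft1 and Hsd17b7 also passed, at 0.63 and 0.73, but their calls were lost without FGF 12 h replicate 2. The count was 3 when FGF 12 h replicate 1 was left out and 1 when replicate 2 was, which ended the calls of Pmvk (limma adjusted p = 0.0554) and Mvd (0.262). Dhcr7 had 1703 with late U0126, within its FGF range of 2308 and 1564.

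The late array belongs to experiment 1, and experiment 1 arrays ran higher at 12 h. The mean difference from quiescent cells over the sterol branch was 1.65 with late U0126, against 1.24 in experiment 1 and 0.96 in experiment 2 of FGF alone. For the fatty acid branch it was 1.00, against 0.69 and 0.44. Against U0126 given before FGF at 12 h, late U0126 raised Pmvk alone of 33 members by 1.47 ± 0.25 (limma adjusted p = 0.0118), against 0.56% of all genes higher, and 9 members with the block (1.49%). The Pmvk call was lost without FGF plus U0126 12 h replicate 2 (limma adjusted p = 0.108). There is no second array with late U0126.

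Neighbouring lipid genes were counted from lists outside the members. Of 11 fatty acid oxidation genes tested, 8 were lower and 0 higher at 12 h of FGF than in quiescent cells, with a median of -0.51, against 11.9% and 8.38% of all genes and a median of -0.03. Cpt1a, the carnitine palmitoyltransferase that lets fatty acids into mitochondria, was at -1.19 ± 0.16, Cpt2 at -1.01 ± 0.30 and Acadm, a dehydrogenase of medium-chain fatty acids, at -0.77 ± 0.14 (limma adjusted p = 0.000117, 0.0252 and 0.00135). Of 14 other lipid synthesis genes 2 were higher and 1 lower, close to the shares over all genes, with Acsl4 at 1.29 ± 0.19, Elovl5 at 0.39 ± 0.12 and Gpam at -0.71 ± 0.18 (limma adjusted p = 0.000238, 0.0318 and 0.0109). With the block 4 of these 14 were higher and 2 lower, against 12.1% and 17.8% of all genes. None of 5 isoprenoid side-branch genes, 2 SREBP proteases or 6 LXR and sterol efflux or storage genes passed, with or without the block. With U0126 against FGF alone at 12 h, 2 of 11 oxidation genes were higher and 1 lower, against 6.25% and 5.78% of all genes. Cpt1a (0.63 ± 0.16) and Acadm (0.48 ± 0.14) were higher and Ppara (-1.95 ± 0.60) was lower (limma adjusted p = 0.0196, 0.039 and 0.0452). Of the 14 other lipid synthesis genes 3 were higher and 0 lower. With the block these were 3 and 1 for oxidation and 4 and 1 for other lipid synthesis, against 11.6% and 9.11% of all genes.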

How the data were processed

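RNA of 19 samples was measured on 1 array each. Per the labels, the deposited values are MAS5 signal intensity on a linear scale, scaled by the authors to a mean of 500 without the highest and lowest 2% of values; the submitters' processing notes name MAS5, and no MAS5 version is given in the sources used here. The table lists 45101 probe sets: 34945 naming 1 gene, 932 naming several, 9160 unnamed and 64 controls. Background correction, scan dates and presence calls were not used here. The number of arrays limits the precision.

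Quiescent arrays 1a and 1b were averaged (r = 0.968), which left 18 columns. A probe set passed when 2 or more arrays had it above their 40th percentile (34537 passed), and its brightest passing probe set stood for each of 14996 genes. Values were log2(signal + 13.6), the offset being the 20th percentile of all values, and were fitted in limma 3.58.1 (R 4.3.3) with a variance trend, two-sided, with Benjamini-Hochberg adjustment per comparison; the fit had 7 residual degrees of freedom and 7.46 prior ones. The script was tested on simulated data. The calls are those without the block. Same-numbered experiments were taken as paired in the block fit only, since their deviations correlated in all 21 pairs of groups (0.118 to 0.304). The fit behind the calls carries no experiment term and leaves this pairing out. Values per array are given for up to 4 members per role with the smallest adjusted p at 12 h of FGF and for the U0126 difference, and for Srebf1, Srebf2, Insig1, Insig2, Fasn, Scd1 and Scd2; other members have differences or counts. Acss2 was added after its values were seen. Lists outside the members name up to 3 called genes each. The members and lists were chosen with earlier results of these data known. Alternatives covered scaling, offset, filter, variance trend, quiescent arrays, probe set choice, block, which groups enter the model and leave-one-out. Promoter letters came from RefSeq.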

Additional observations from a re-analysis of the deposited data

Results flagged for a closer look

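A limma test asked whether the U0126 difference (FGF plus U0126 minus FGF alone) changed between 4 and 12 h. It passed for 3 members, and only with the experiment as a block. For Pmvk the difference at 12 h minus that at 4 h was -1.15 on the log2 scale (limma adjusted p = 0.00153 with the block, 0.0573 without). The U0126 difference of Pmvk was 0.98 at 4 h and -0.18 at 12 h. For Sc5d the change was -0.66 (limma adjusted p = 0.043 with the block, 0.157 without). The U0126 difference of Sc5d in experiments 1 and 2 was 0.47 and 0.21 at 4 h, and -0.27 and -0.37 at 12 h. For Insig2 it was 0.58 (limma adjusted p = 0.0242 with the block, 0.129 without), with a U0126 difference of 0.57 at 4 h and 1.15 at 12 h. None of the 3 passed without the block, where 0 of 33 members did, against 1.79% of all genes. With the block 3 of 33 members passed, against 5.21% of all genes. In the F test over 4, 7 and 12 h with the block, 1 of 33 passed, Pmvk, against 3.84% of all genes.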

How the results depend on the processing

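Of 313 recomputed counts of members called, 252 stayed within 1.5 times the main count and 61 did not; of 9570 recomputed values of single members, 262 lost the call, 161 gained one and 4 turned direction. The count of 24 at 12 h of FGF alone stayed within that range under every setting run. Where quiescent replicate 2, or 1 array of a 2-array group, was left out, that group kept 1 value and its spread came from the rest. Without quiescent replicate 1a or 1b, the quiescent group still had 2 values. The cause of the changes was not tested, except that with the block the spread between experiments leaves the residual by construction. The count over all genes moves too. With the block 1953, 1886 and 3100 of 14996 genes passed for the U0126 difference at 4, 7 and 12 h, against 890, 915 and 1804 without it. All-gene counts under the settings other than the block are not given, so those member counts cannot be set against them.

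With the experiment number as a replicate block, the counts of members called moved to 1 from 0 (FGF 1 h against quiescent), 16 from 7 (FGF 4 h), 12 from 4 (FGF 12 h against 7 h), 1 from 0 (FGF 7 h against 4 h), 6 from 3, 7 from 4 and 9 from 3 (U0126 difference at 4, 7 and 12 h), 11 from 5 (U0126 added at 7 h), 9 from 1 (late against early U0126), 3 from 0 (12 h minus 4 h) and 1 from 0 (F test). With only the compared groups in the fit they were 2 (FGF 1 h), 2 and 5 (U0126 difference at 7 and 12 h), 10 (U0126 added at 7 h) and 2 (late against early). Without the variance trend they were 4 and 9 (FGF 4 and 7 h), 0 (FGF 12 h against 7 h), 2 (U0126 at 7 h), 6 (average), 1 (U0126 added at 1 h), 2 (added at 7 h) and 0 (late against early). With the probe set of highest variance they were 10 (FGF 7 h), 1 and 2 (U0126 at 4 and 7 h), 5 (average), 1 (added at 1 h) and 1 (added at 7 h). With 3 separate quiescent arrays they were 12 (FGF 4 h) and 1 (12 h minus 4 h), with no filter 2 (FGF 12 h against 7 h) and 3 (added at 7 h), with quantile normalization 3 (added at 7 h), with 75th percentile scaling 3 and an offset at the 40th percentile 2 (late against early), and with a filter at the median on 4 arrays 1 (12 h minus 4 h). For single members, the probe set of highest variance turned Fdft1 to -0.46 (FGF 7 h), -1.32 (FGF 12 h) and -1.24 (FGF plus U0126 7 h) on a dim probe set, and Scd1 at 12 h of FGF to 0.60 on its other probe set. Leaving out 1 array at a time gave 1 to 10 members called at 4 h of FGF, 6 to 16 at 7 h and 0 to 4 at 12 h against 7 h; 1 to 3, 2 to 3 and 1 to 3 for the U0126 difference at 4, 7 and 12 h and 6 to 12 for its average; 5 to 11, 7 to 14 and 11 to 18 for FGF plus U0126 against quiescent cells at 4, 7 and 12 h; 1 to 3 for U0126 added at 1 h and 1 to 3 for U0126 added at 7 h; 0 to 1 for late against early U0126; and 0 to 1 for 12 h minus 4 h.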
